A study of Homo sapiens with 4 samples.

Results

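The genes described here encode the proteins of the mitochondrial ribosome. They were chosen by symbol, as every gene named MRPL or MRPS with a number and, where present, a final letter A, B or C. Of 60605 genes in the files, 78 had such a symbol, 49 for the large subunit (MRPL) and 29 for the small subunit (MRPS). All 78 were among the 22185 genes that passed the filter on low values, a mean of at least 0.1 FPKM. FPKM counts the fragments of a gene per unit of its length and of the depth of the library, so that levels of genes of different length can be set side by side.

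RNA was sequenced from OVCAR3, a human line of serous ovarian carcinoma of high grade, in 2 DMSO treated libraries and 2 etoposide treated libraries. Etoposide is an inhibitor of topoisomerase II that leaves double-strand breaks in DNA, and the comparison asks how the transcripts of the damaged cells differ from those of the vehicle control. By the methods of the study for this treatment, both groups first spent 16 h in nocodazole at 100 ng/mL, which halts cells in mitosis, and 3 h without it, after which they received DMSO alone or 1.7 µM etoposide for 24 h. The labels call the samples of a group biological replicates, no other genotype or cell line is part of the data, and the transfected cells and the mutant that the sequencing methods mention have no counterpart among these samples.

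The mitochondrial ribosome translates the few messenger RNAs of the mitochondrial genome, all of which encode membrane proteins of oxidative phosphorylation. Its ribosomal RNAs are made inside the organelle, whereas its proteins are encoded in the nucleus, made in the cytosol and imported. The large subunit forms the peptide bond and the small subunit reads the codon. Compared with the bacterial ribosome it has lost much of its RNA and gained proteins that have no bacterial counterpart.

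The mapped bases behind the files, computed from the deposited coverage and FPKM, were 12.9 and 13.3 gigabases for DMSO replicates 1 and 2, and 9.54 and 11.7 gigabases for etoposide replicates 1 and 2. DMSO replicate 1 stood apart for the genes described here. The sums and medians of the subunits, most list medians and most leading fold changes of members are also given without it. The ovarian carcinoma markers fixed for a check of the cell type (8 of 8 tested) summed to 2954 and 2613 FPKM in DMSO and to 2033 and 2100 FPKM in etoposide libraries. The largest parts of the sum were KRT8 (1266 and 1055 against 772 and 821 FPKM) and KRT18 (944 and 835 against 611 and 639 FPKM). Of the 8 markers, 5 were lower in both etoposide libraries, EPCAM was higher (124 and 125 against 127 and 134 FPKM), and WT1 and MECOM overlapped between groups. Of the leukocyte markers, 3 of 5 were tested with a sum of 1.03 to 1.63 FPKM over the 4 libraries, and PTPRC and CD3E lay under the filter. Of the fibroblast markers, 4 of 6 were tested (6.91 and 6.95 against 8.37 and 8.16 FPKM), and of the endothelial markers 1 of 3. The part of these marker differences in the results was not tested. In a bulk library, fewer cells of a type and less RNA per cell cannot be told apart.

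The 78 genes spanned a 140-fold range of levels, and 68 of them had a mean of at least 10 FPKM. MRPL3, a protein of the core of the large subunit that has a bacterial counterpart (uL3m), was the most abundant. It measured 161 and 158 FPKM in DMSO libraries and 160 and 160 FPKM in etoposide libraries, so that the 4 libraries were nearly level. MRPS6, which also has a bacterial counterpart (bS6m), followed with 133 and 126 FPKM in DMSO and 122 and 121 FPKM in etoposide. MRPL20, a protein that binds ribosomal RNA in the large subunit, had 135 and 121 FPKM in DMSO and 114 and 115 FPKM in etoposide. The libraries of MRPS6 and MRPL20 overlapped each other, and both lay below every library of MRPL3. MRPS34, found in mitochondrial but not in bacterial ribosomes, had a mean of 113 FPKM and MRPL51 one of 105 FPKM. Next in the large subunit were MRPL43 (94.4 FPKM) and MRPL12 (78.4 FPKM), and in the small subunit MRPS7 (67.2 FPKM), MRPS22 (58.3 FPKM) and MRPS24 (52.3 FPKM).

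The low end held MRPL57 (7.25 FPKM), MRPL45 (6.53 FPKM), a protein that anchors the ribosome at the inner membrane, and MRPL50 (5.01 FPKM) of the large subunit. In the small subunit it held MRPS11 (7.91 FPKM), MRPS31 (7.77 FPKM) and MRPS18B. MRPS18B stood apart, with 1.03 and 1.22 FPKM in DMSO and 1.12 and 1.19 FPKM in etoposide libraries. The next lowest member, MRPL50, was 4.39-fold higher. MRPS18B is 1 of 3 related genes whose proteins take different places in the ribosome, and its paralogues were higher, MRPS18A at 18.4 FPKM and MRPS18C at 19.2 FPKM.

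**Figure D1:**
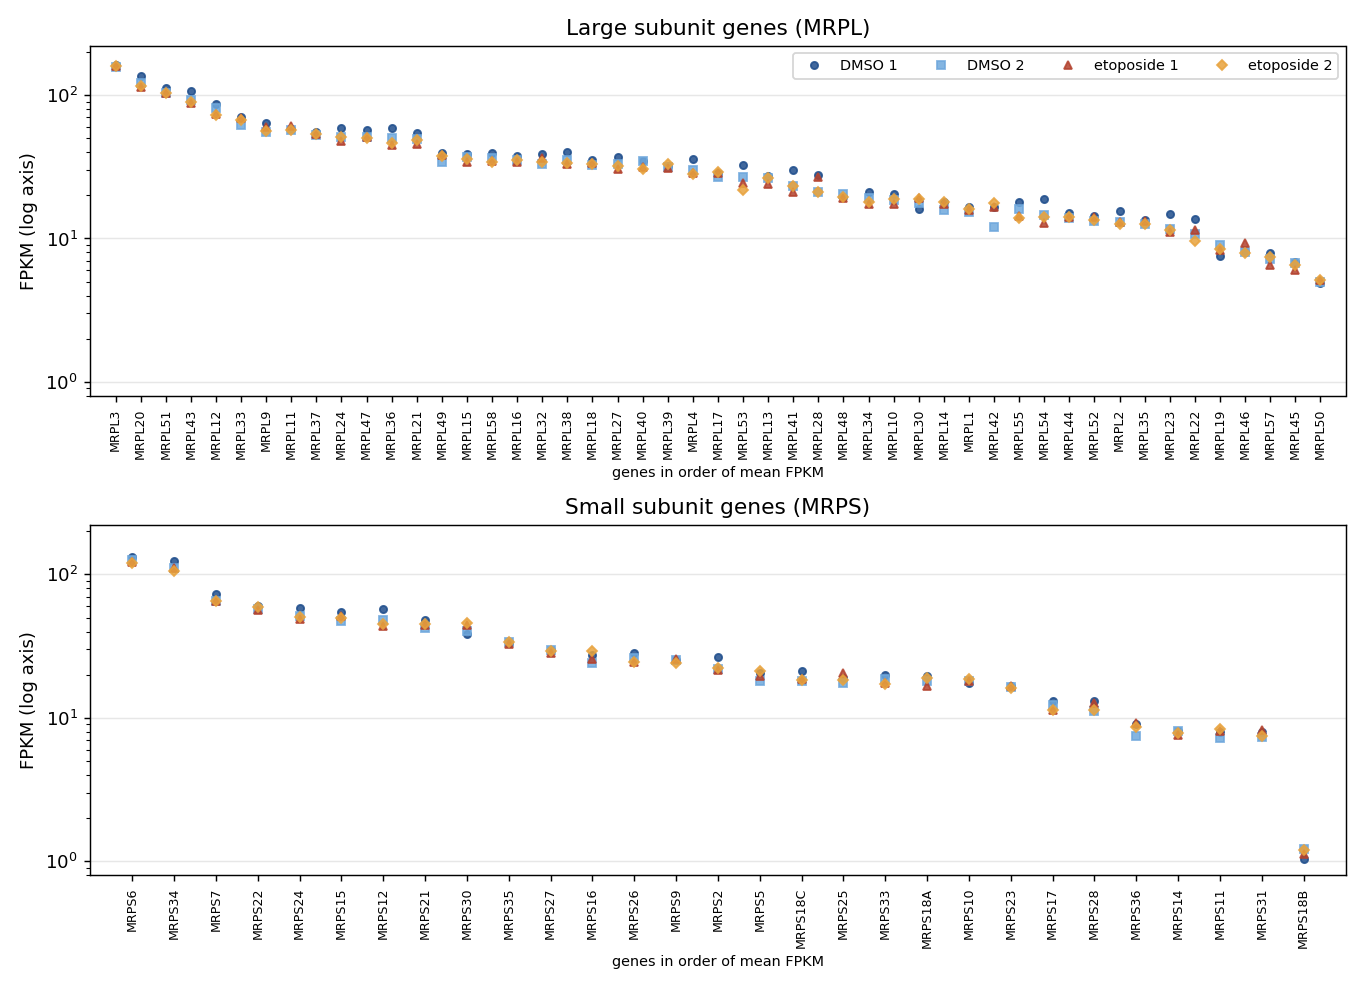
FPKM (log axis) of each gene in each of the 4 libraries, with the 49 large subunit genes in the upper panel and the 29 small subunit genes in the lower one, each in order of mean FPKM. The 4 points of a gene lie close together compared with the range from MRPL3 at 160 FPKM to MRPS18B at 1.14 FPKM.

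MRPS18B lies at chr6:30617840-30626395 (GRCh38), in the major histocompatibility region. Of 31 named genes within 250 kb on either side, 9 had a mean of at least 1 FPKM and only TUBB, at 18.6 FPKM, had one of at least 5 FPKM. ABCF1, the gene of an ATP-binding protein of translation, was at 3.52 FPKM, above the median of all genes tested (2.29 FPKM). PPP1R10, whose span overlaps that of MRPS18B without a shared exonic base, was at 1.52 FPKM. No cause for the low level of MRPS18B was tested.

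The genes are scattered over 21 chromosomes, with at most 8 on any 1 of them (chromosomes 1, 2 and 17). Promoter sequences from RefSeq (GRCh38.p14) were at hand for 69 of the 78 genes, in 85 windows of 250 bases before a transcription start. The letters CCGGAAG, bound by ETS factors such as GABP, stood on either strand in 31.8% of these windows (25 of 69 genes), in 8.52% of all 35116 windows and in 17.1% of the 6537 windows of genes with a mean of at least 10 FPKM. AAGATGG, the core letters of YY1, stood in 12.9% of the windows against 3.70% of all windows and 4.08% of those of the expressed genes. The core letters of NRF1, GCATGCG, stood in 8.24% against 3.39% and 5.58%, and TATAAA in 2.35% against 10.7% and 5.46%. Each motif was searched for separately. CCGGAAG ends in AAG, with which AAGATGG begins, so that the same stretch can count for both. Matches are given as a description of the sequence, without a test.

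The 120 bases before the start are shown for 4 genes that the results turn on, namely the most abundant gene (MRPL3), the gene with the lowest fold change in etoposide (MRPL53), the small subunit gene nearest to the threshold among those lower in etoposide (MRPS12) and the 1 gene higher at an unadjusted p under 0.05 (MRPS30). Capitals mark CCGGAAG. They were read 5′ to 3′ on the strand of the gene, at chr3:131502972-131503091 (minus), chr2:74472681-74472800 (minus), chr19:38930834-38930953 (plus) and chr5:44808827-44808946 (plus) in that order.
MRPL3: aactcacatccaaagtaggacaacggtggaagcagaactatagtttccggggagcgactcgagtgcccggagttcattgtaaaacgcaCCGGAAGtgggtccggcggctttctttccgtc
MRPL53: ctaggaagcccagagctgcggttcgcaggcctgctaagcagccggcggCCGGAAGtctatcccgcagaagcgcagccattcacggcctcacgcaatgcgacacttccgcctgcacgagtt
MRPS12: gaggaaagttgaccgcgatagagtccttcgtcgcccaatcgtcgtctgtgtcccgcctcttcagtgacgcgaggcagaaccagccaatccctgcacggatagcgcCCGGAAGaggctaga
MRPS30: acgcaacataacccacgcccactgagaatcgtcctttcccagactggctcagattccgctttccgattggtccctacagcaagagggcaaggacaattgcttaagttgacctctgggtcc
The motif began 32 bases before the start in MRPL3, 72 bases before it in MRPL53 and 15 bases before this start of MRPS12. For MRPS12 RefSeq gives another start as well, and the window before that start did not hold CCGGAAG. MRPS12 also held the YY1 letters farther upstream, outside the stretch shown. In MRPS30 none of the 4 motifs was found in the 250 bases. In the stretches shown, MRPL53 and MRPS12, both lower in etoposide, and MRPL3, which was level, held the same letters.

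Large subunit genes summed to 1921 and 1740 FPKM in DMSO and to 1724 and 1722 FPKM in etoposide libraries. Small subunit genes summed to 1014 and 930 FPKM in DMSO and to 933 and 936 FPKM in etoposide libraries. Both etoposide sums of the large subunit lay below both DMSO sums, whereas those of the small subunit lay between the DMSO sums. The mean sums were 5.86% lower in etoposide for the large subunit (1830 ± 128 against 1723 ± 1.33 FPKM, SD, n = 2 each) and 3.86% lower for the small subunit (972 ± 59.5 against 934 ± 2.24 FPKM, SD, n = 2 each). DMSO replicate 2 itself was 9.43% and 8.29% below DMSO replicate 1, so that both differences between the groups were smaller than the difference between the DMSO replicates. With 2 libraries a group, an exact two-sided permutation test cannot give a p below 0.333, and no test was run on the sums or on their ratio. Without DMSO replicate 1 the log2 difference of the sums (etoposide minus DMSO) went from −0.085 to −0.014 for the large subunit and from −0.056 to 0.0069 for the small subunit, which turned its direction.

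The sum of the large subunit was 1.89 and 1.87 times that of the small subunit in DMSO libraries and 1.85 and 1.84 times in etoposide libraries. The ratio does not depend on the scaling of a library. Its groups did not overlap, with means of 1.88 ± 0.0166 and 1.84 ± 0.00585 (SD, n = 2 each), a difference of −2.05%. The symbols do not always give the place of the protein: MRPS30 (mL65) and MRPS18A (mL66) sit in the large subunit, and MRPS36 is known as a subunit of the 2-oxoglutarate dehydrogenase complex. With those moved or left out, the ratio was 2.09 and 2.08 in DMSO and 2.07 and 2.07 in etoposide libraries, so that the difference went from −2.05% to −0.705%. The mean ratio of the subunit medians went the other way, from 1.25 to 1.30 by symbol and from 1.21 to 1.23 by place. By symbol it was 1.27 and 1.23 in DMSO and 1.33 and 1.26 in etoposide libraries. By place it was 1.24 and 1.17 against 1.24 and 1.21. The groups overlapped in both, so that only the direction of the means depends on the summary used.

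**Figure D2:**
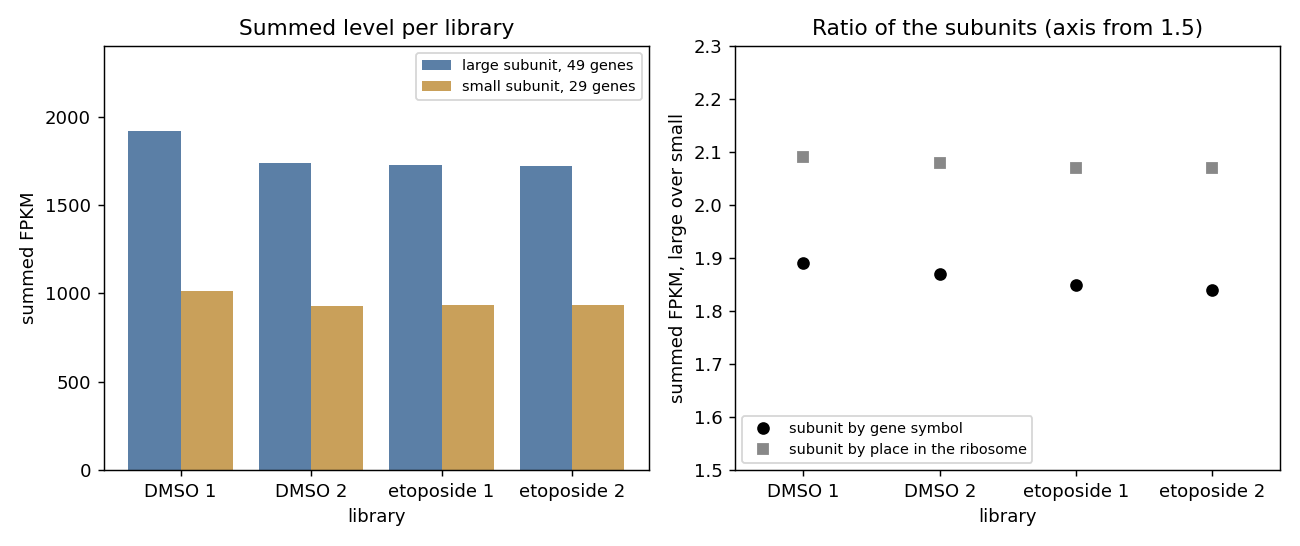
Summed FPKM of the large and the small subunit genes in each library (left, bars from 0) and the ratio of the sums (right, axis from 1.5), with subunits set by symbol or by place in the ribosome. DMSO replicate 1 has the highest sums (1921 and 1014 FPKM), and the ratio by symbol runs from 1.89 to 1.84.

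In etoposide against DMSO, no gene of the mitochondrial ribosome passed an adjusted p of 0.05 (limma on log2(FPKM + 0.1), Benjamini-Hochberg over all 22185 genes), and neither did any other gene (0% of all genes tested). The smallest adjusted p of a member was 0.373 and that of all genes 0.169. At an unadjusted p under 0.05, 1 member was higher and 4 were lower, against 7.06% and 4.85% of all genes. All 78 genes lay within 1.5-fold of DMSO, a size that 6.83% of all genes exceeded, and 42 of them had a log2 fold change between −0.1 and 0.1.

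On the FPKM scale the values leaned to the lower side. The log2 fold change (etoposide minus DMSO) was below 0 for 56 of 78 members (71.8%), against 43.8% of all genes, and its median was −0.054 against 0.036 over all genes. With TPM 38 of 78 members were below 0 and the median was 0.013 (0.10 over all genes), and with libraries shifted to a common median 69 were below 0 and the median was −0.12 (−0.033 over all genes). In the large subunit it was below 0 for 36 of 49 genes with a median of −0.082, and in the small subunit for 20 of 29 genes with a median of −0.020. Both etoposide libraries lay below both DMSO libraries for 29 members (19.0% of all genes) and above them for 4 members (28.9% of all genes). The large and small subunit distributions overlapped nearly throughout, from −0.37 to 0.27 and from −0.25 to 0.20. Genes with a bacterial counterpart had a median of −0.073 (46 genes) and genes without one had a median of −0.046 (31 genes). With length and GC content corrected for, these medians were −0.068 and −0.072, so that their order turned.

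The lean was smaller without DMSO replicate 1. That library was the highest of the 4 libraries for 56 of 78 members, against 29.5% of all genes, and DMSO replicate 2 lay below it for 67 of 78 members, against 49.3% of all genes. The median difference between the DMSO replicates was −0.13 (log2, replicate 2 minus replicate 1) and that between the etoposide replicates 0.0081. For 52 of 78 members the DMSO replicates differed by more than the groups did. Without DMSO replicate 1 the medians were −0.029 (large) and −0.0023 (small), with 42 of 78 members below 0 (43.3% of all genes). Without DMSO replicate 2 they were −0.15 and −0.071, with 65 of 78 members below 0.

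**Figure D3:**
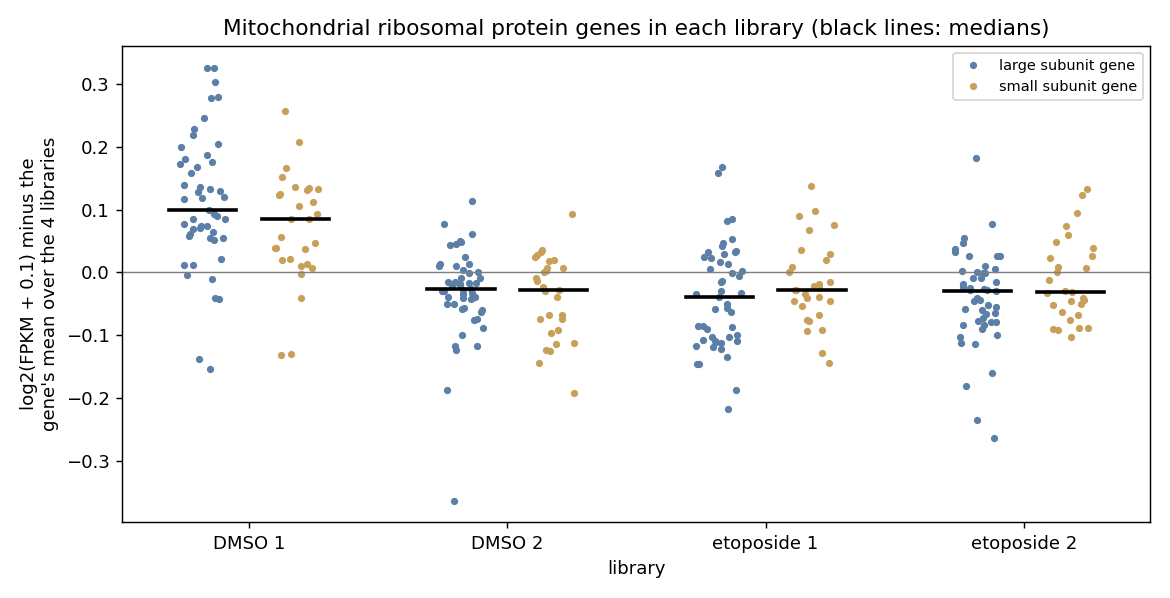
Deviation of log2(FPKM + 0.1) from the gene's mean over the 4 libraries (y axis) for every large and small subunit gene in each library, with medians as black lines. The medians of DMSO replicate 1 are 0.099 (large) and 0.085 (small), while those of the other 3 libraries lie between −0.039 and −0.026.

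Without DMSO replicate 2, 1934 genes passed an adjusted p of 0.05 in limma and 11 of them were members, all lower (590 genes, or 2.66% of all genes, were called lower). Those 11 genes were MRPL36, MRPL4, MRPL23, MRPL43, MRPL54, MRPL53, MRPL55, MRPL20, MRPL41 and MRPL38 of the large subunit and MRPS12 of the small subunit. Their adjusted p ranged from 0.0339 to 0.0496, with the lone DMSO library assumed to vary like the etoposide libraries. Without DMSO replicate 1 none of the 78 was called.

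Among the genes lower in etoposide, MRPL53 had the lowest fold change. This protein of the large subunit has no bacterial counterpart, and its gene measured 32.7 and 26.9 FPKM in DMSO and 24.2 and 21.7 FPKM in etoposide libraries. The etoposide libraries were both below the DMSO libraries, with a log2 fold change of −0.37 ± 0.12 (SE, unadjusted p = 0.0214, limma adjusted p = 0.373). The step between the DMSO replicates (−0.28) was most of the size of the difference between groups. MRPL53 shares 99.4% of its exonic bases with other genes, the most overlapping of which was at 0.958 FPKM, and counting without strand does not tell antisense reads apart. The log2 fold change of MRPL53 was −0.23 when DMSO replicate 1 was left out.

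MRPL55 (bL31m) measured 18.1 and 16.1 FPKM in DMSO and 14.4 and 13.9 FPKM in etoposide libraries, a log2 fold change of −0.27 ± 0.094 (SE, limma adjusted p = 0.390). MRPL36 (bL36m), a small zinc-binding protein of the large subunit, measured 59.2 and 50.4 FPKM in DMSO and 45.1 and 46.1 FPKM in etoposide libraries, with a log2 fold change of −0.26 ± 0.10 (SE, limma adjusted p = 0.400). In both genes all etoposide values were below all DMSO values. Leaving out DMSO replicate 1 gave −0.19 for MRPL55 and −0.14 for MRPL36 (log2).

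MRPL12 is the protein of the flexible stalk to which translation factors are recruited. It measured 86.2 and 80.9 FPKM in DMSO and 73.8 and 72.9 FPKM in etoposide libraries, a log2 fold change of −0.19 ± 0.072 (SE, limma adjusted p = 0.405). Its etoposide libraries were again both lower, and the step between its DMSO replicates (−0.092, log2) was smaller than the difference between groups. Of the other stalk genes, MRPL10, at the base of the stalk, had 20.4 and 18.6 FPKM in DMSO and 17.5 and 18.8 FPKM in etoposide, and MRPL11 had 58.1 and 57.2 FPKM in DMSO and 60.4 and 57.3 FPKM in etoposide. Their log2 fold changes were −0.10 and 0.030, and the groups overlapped in both. The differences from MRPL12 were not tested. With length and GC content corrected for, MRPL12 (−0.064) and MRPL10 (−0.063) were equal to within 0.01, while MRPL11 was at 0.085. MRPL12 was at −0.14 and MRPL10 at −0.034 without DMSO replicate 1.

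MRPS12 (uS12m), a protein of the decoding centre, had 57.6 and 47.9 FPKM in DMSO and 43.6 and 44.9 FPKM in etoposide libraries, a log2 fold change of −0.25 ± 0.10 (SE, limma adjusted p = 0.424). MRPL40 had 34.7 and 34.5 FPKM in DMSO and 31.3 and 30.5 FPKM in etoposide libraries, a log2 fold change of −0.16 ± 0.072 (SE, limma adjusted p = 0.435). Here the DMSO replicates were nearly equal, and the etoposide libraries lay below them. With DMSO replicate 1 left out, the log2 fold change was −0.11 for MRPS12 and −0.16 for MRPL40.

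On the higher side, MRPS30 was the 1 gene at an unadjusted p under 0.05. Its protein (mL65) belongs to the large subunit in spite of its symbol. It measured 38.5 and 40.2 FPKM in DMSO and 44.4 and 45.9 FPKM in etoposide libraries, a log2 fold change of 0.20 ± 0.073 (SE, unadjusted p = 0.0357, limma adjusted p = 0.397). Both etoposide libraries were higher, by more than the replicates differed, and without DMSO replicate 1 the log2 fold change of MRPS30 was 0.17. MRPL30 (16.1 and 17.8 FPKM in DMSO, 19.0 and 18.9 FPKM in etoposide) and MRPS11 (8.02 and 7.24 FPKM against 8.06 and 8.32 FPKM) were also above in both etoposide libraries, with limma adjusted p of 0.486 and 0.672. MRPL42 had the highest fold change, 0.27 ± 0.16 (SE, log2), but its DMSO replicates were 16.7 and 12.1 FPKM and the groups overlapped (16.5 and 17.7 FPKM in etoposide). Without DMSO replicate 1 the log2 fold change was 0.49 for MRPL42 and 0.087 for MRPL30. MRPS25 and MRPS36 overlapped as well, at log2 fold changes of 0.10 and 0.11.

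Other members with particular roles differed little. MRPL44, a protein with an RNase III-like fold, had 15.0 and 14.0 FPKM in DMSO and 14.2 and 14.2 FPKM in etoposide. MRPL58, a peptidyl-tRNA hydrolase that has become a ribosomal protein, had 39.3 and 36.5 FPKM against 34.9 and 34.1 FPKM. The log2 fold change was −0.034 for MRPL44 and −0.13 for MRPL58, which did not overlap between groups. MRPL45 measured 6.89 and 6.73 FPKM in DMSO and 5.99 and 6.52 FPKM in etoposide, and MRPS27, a pentatricopeptide repeat protein, 29.6 and 29.7 FPKM against 28.3 and 29.2 FPKM. The paralogues MRPS18A, MRPS18B and MRPS18C had log2 fold changes of −0.081, 0.038 and −0.077 and overlapped between groups.

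The fold changes followed transcript length and base composition. Over the 78 genes, Spearman's rho of the log2 fold change was 0.584 with the length of the transcript and −0.544 with its GC content, so that short and GC-rich members tended to be lower in etoposide. Over the same genes, the difference between the DMSO replicates had a rho of 0.418 with length and −0.395 with GC content. Over the 13559 genes tested with a mean of at least 1 FPKM the fold change had a rho of 0.345 with length and −0.427 with GC content, and the difference between the DMSO replicates one of 0.545 and −0.507, so that the relation was also present outside the members. Over all 22185 genes the values for the fold change were 0.191 and −0.286. Without DMSO replicate 1 those of the members were 0.388 and −0.364 and those of all genes 0.0143 and −0.106. Over the genes with a mean of at least 1 FPKM they were then 0.0380 and −0.171, so that the relation outside the members was weaker without that library. These are descriptions over genes that share 4 libraries. Members were short, with a median of 1190 bases against 2154 bases for all genes, and the large subunit genes (1074 bases) shorter than the small subunit genes (1414 bases).

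After a loess correction of each library for length and GC content, rho over the members was 0.177 with length and 0.0950 with GC content. The medians then were −0.088 for the large and −0.047 for the small subunit, against −0.0022 for all genes, and 59 of 78 members were below 0 (50.4% of all genes). The lean to the lower side had the same direction with the correction, while the distance between the subunits went from −0.062 to −0.041. The corrected fit kept DMSO replicate 1, and the correction was not run without it. The fold change of MRPL12 went to −0.064, that of MRPL55 to −0.15 and that of MRPL30 to 0.0064, whereas MRPL53 (−0.29), MRPL36 (−0.23) and MRPS30 (0.17) moved less. With the correction 6 genes were called in limma, and no member was among them (smallest adjusted p 0.190), while with the replicate block added 0 genes were called.

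**Figure D4:**
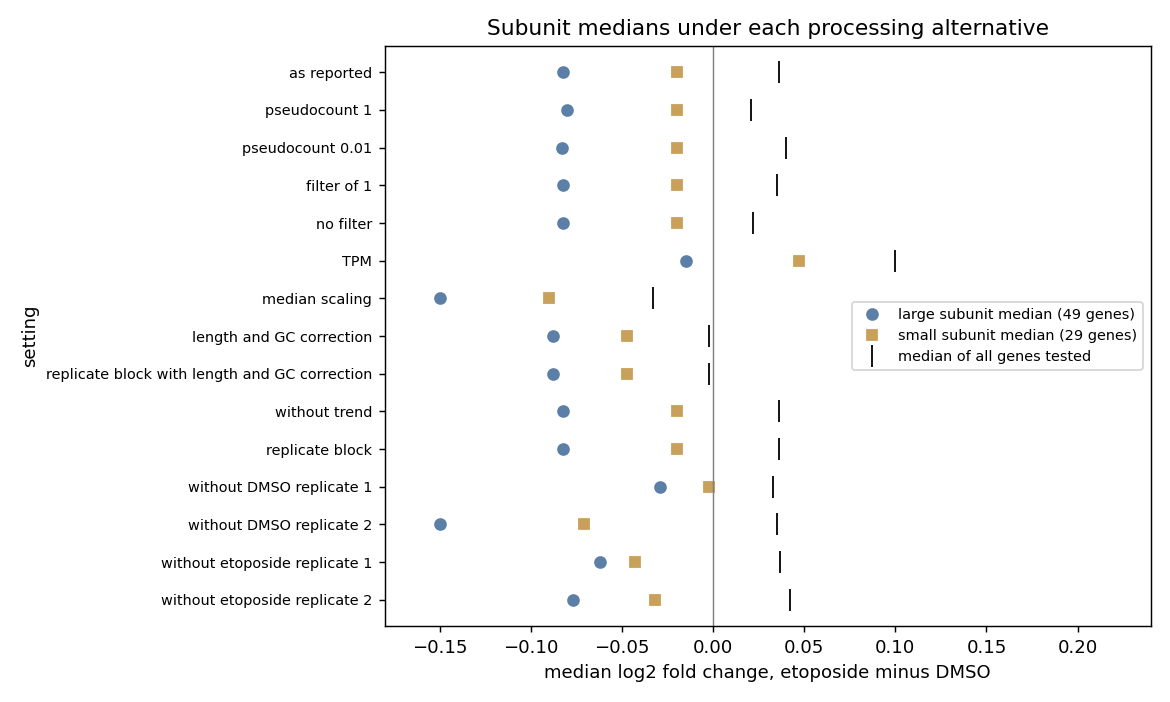
Median log2 fold change of the large and of the small subunit genes, and of all genes tested, under each processing alternative (rows). The large subunit median is below the small subunit median in every row, by −0.019 to −0.075, and the small subunit median is above 0 with TPM (0.047).

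The 498 annotated transcripts of the members gave no call among 71340 transcripts tested with limma (0% of all transcripts, smallest adjusted p of a member transcript 0.291 among 380 tested). At an unadjusted p under 0.05, 6 of the 380 were higher and 11 lower, against 2.95% and 2.83% of all transcripts. Protein-coding transcripts made up 89.6% and 90.5% of the members' summed FPKM in DMSO and 88.7% and 89.4% in etoposide libraries. Retained introns took 2.65% and 2.64% in DMSO and 3.20% and 2.89% in etoposide libraries, and transcripts marked for nonsense-mediated decay 3.80% and 3.53% against 3.96% and 3.66%. The most abundant transcript was the same in all 4 libraries for 69 members.

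Of the 9 other members, MRPL21 differed by replicate number and not by treatment. Its transcript ENST00000362034 was at 1.43 and 35.7 FPKM in DMSO replicates 1 and 2 and at 1.29 and 33.9 FPKM in etoposide replicates 1 and 2, while the sum of the gene was 54.3, 49.4, 45.8 and 48.5 FPKM in the same order. In MRPS12 the most abundant transcript differed by treatment. ENST00000308018 was at 27.3 and 19.8 FPKM in DMSO and 14.7 and 15.7 FPKM in etoposide libraries (limma adjusted p = 0.845). ENST00000402029 was at 17.0 and 17.4 FPKM in DMSO and 17.5 and 20.8 FPKM in etoposide libraries (limma adjusted p = 0.853). By p-value the leading transcripts of the members belonged to MRPL42, MRPL10 and MRPL55, and none passed. ENST00000393128 of MRPL42 was at 5.11 and 2.38 FPKM in DMSO and listed at 0 in both etoposide libraries (limma adjusted p = 0.291). The most abundant transcript of MRPL42, ENST00000358678, is marked for decay. It was at 9.05 and 4.67 FPKM in DMSO and 12.4 and 14.2 FPKM in etoposide libraries (limma adjusted p = 0.848). ENST00000421763 of MRPL10, a transcript marked for decay, was at 3.12 and 11.0 FPKM in DMSO and listed at 0 in etoposide (limma adjusted p = 0.387). In MRPL10 the sums of all transcripts overlapped between groups. ENST00000366733 of MRPL55 went the other way, from 0.459 and 0.308 FPKM in DMSO to 2.66 and 2.22 FPKM in etoposide (limma adjusted p = 0.402). MRPL55 has 34 annotated transcripts, 18 of them at 0.1 FPKM or more, and the most abundant one held 24.3% of its level.

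Members that share exonic bases with another gene were common, 41 of 78 with any overlap and 12 with at least 25% of their bases. After MRPL53 the largest shares were those of MRPL12 (69.5%, with a gene listed at 0), MRPS18A (50.9%, with RSPH9 at 0.341 FPKM) and MRPL38 (45.1%, with a gene at 0.351 FPKM). In these genes the overlapping gene was below the member. MRPL51 at 105 FPKM shares 27.6% of its bases with NCAPD2 at 53.1 FPKM, and MRPS14 at 7.92 FPKM shares 14.9% with CACYBP, which was higher at 43.6 FPKM. Of 79 pseudogenes named after a member, 39 were listed at 0 in all libraries and 4 had a mean of at least 1 FPKM. MRPL45P2 was at 7.27 and 6.90 FPKM in DMSO and 4.34 and 7.41 FPKM in etoposide, as high as MRPL45 itself, so that the split of reads between the pair is uncertain.

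The other genes of mitochondrial translation gave no call either, with 0 genes past an adjusted p of 0.05 in limma in each list. At an unadjusted p under 0.05 there was 1 higher among 17 translation factors, 2 lower among 22 aminoacyl-tRNA synthetases and 1 in each direction among 14 regulators. Of all genes, 7.06% were higher and 4.85% lower at that threshold. Of the 5 mitoribosome proteins with other symbols, DAP3, a GTP-binding protein of the small subunit, was at 117 and 121 FPKM in DMSO and 128 and 123 FPKM in etoposide, and AURKAIP1 at 139 and 114 FPKM against 112 and 114 FPKM. DAP3 was above and AURKAIP1 at or below the DMSO range. Genes of ribosome assembly and rRNA modification had a median log2 fold change of −0.043 (18 of 28 below 0). NOA1, a GTPase of assembly, was at 18.3 and 17.0 FPKM against 15.0 and 15.6 FPKM, and NSUN4, an rRNA methyltransferase, at 6.02 and 6.71 FPKM against 7.44 and 7.34 FPKM. The groups did not overlap in either gene, in opposite directions.

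Translation factors had a median of 0.089 (7 of 17 tested below 0), and the smallest p among them was that of the elongation factor GFM1, with 19.0 and 21.3 FPKM in DMSO and 25.9 and 23.0 FPKM in etoposide (limma adjusted p = 0.396). TSFM, another elongation factor, had the highest log2 fold change of the list (0.38 ± 0.39, SE), with DMSO libraries at 8.40 and 19.7 FPKM and overlapping groups. With length and GC content corrected for, the factors had a median of −0.041 and the log2 fold change of GFM1 went from 0.28 to 0.061. Mitochondrial aminoacyl-tRNA synthetases had a median of −0.047 (12 of 22 below 0), with the seryl-tRNA synthetase SARS2 at 21.1 and 19.1 FPKM against 17.6 and 16.6 FPKM. Regulators of mitochondrial transcription and biogenesis had a median of 0.055 (4 of 14 below 0). The smallest p was that of the transcription factor MYC, at 11.8 and 11.8 FPKM in DMSO and 8.18 and 9.45 FPKM in etoposide, a log2 fold change of −0.42 with and without the correction (limma adjusted p = 0.313). TFAM, which packages the mitochondrial genome and takes part in its transcription, was at 14.6 and 16.4 FPKM against 18.1 and 18.4 FPKM. The correction took the regulators' median to −0.047 and TFAM from 0.24 to 0.0027.

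Genes of the mitochondrial genome, of oxidative phosphorylation and of the cytosolic ribosome leaned lower to a similar or larger extent. The 15 genes of the mitochondrial genome had a median of −0.083 with 14 below 0. They include the untranslated ribosomal RNAs MT-RNR1 and MT-RNR2. MT-RNR1 had the lowest log2 fold change of that list (−0.45), with 1502 and 1665 FPKM in DMSO and 1507 and 889 FPKM in etoposide libraries. Nuclear genes of oxidative phosphorylation had a median of −0.14 with 69 of 76 below 0, and cytosolic ribosomal protein genes a median of −0.11 with 72 of 79 below 0. In the same lists DMSO replicate 2 was below DMSO replicate 1 for 14 of 15, 71 of 76 and 77 of 79 genes. These comparisons share all 4 libraries with that of the mitochondrial ribosome, and the differences between lists were not tested. Without DMSO replicate 1 the medians were −0.0080 for the mitochondrial genome, −0.046 for oxidative phosphorylation and −0.023 for cytosolic ribosomal proteins, and 0.0035 for ribosome assembly, 0.032 for translation factors, −0.024 for the synthetases and 0.010 for the regulators. As a share of the total TPM (FPKM rescaled to the same total in each library), the members were 0.646% and 0.618% in DMSO and 0.624% and 0.633% in etoposide libraries, where the etoposide values lay between those of DMSO.

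**Figure D5:**
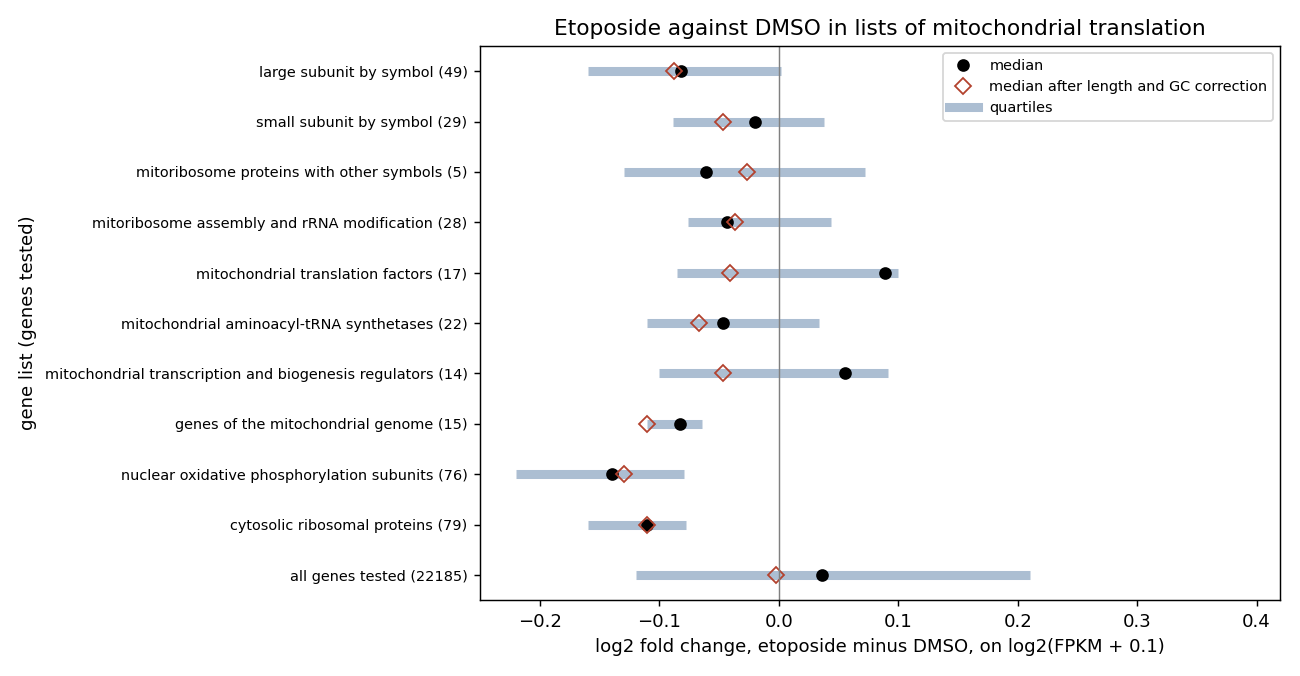
Median log2 fold change (etoposide minus DMSO) of each gene list with its quartiles, and the median after correction for length and GC content, with the number of genes tested in brackets. The large subunit median (−0.082) lies to the left of the small subunit median (−0.020), and those of oxidative phosphorylation (−0.14) and cytosolic ribosomal proteins (−0.11) lie farther left.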

How the data were processed

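RNA was sequenced on 4 libraries as pairs of 100 bases from a stranded mRNA kit. Alignment to GRCh38 was by HISAT2 and sorting by SAMtools. The authors then quantified the 236853 transcripts of Ensembl release 104 with StringTie 2.1.7, which the file headers show to have assembled no other transcript and to have used no setting for strand. The deposited values used here are FPKM and TPM per transcript. The authors' own differential test (DESeq2 on counts) is not used here. The level of each of 60605 genes is the sum of the FPKM of its transcripts.

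Genes at or above 0.1 FPKM on average (22185) were tested on log2(FPKM + 0.1) with limma 3.58.1 in R 4.3.3, with trend and robust moderation, all 4 libraries, no covariate and Benjamini-Hochberg adjustment over all genes. Fold changes on this scale understate the change of low genes. Transcripts were tested in the same way. Sums, ratios and medians over the members carry no test. The fit and the loess correction (span 0.3) were tested on simulated data. Transcript types came from GENCODE release 44 and promoters from RefSeq. Tables were made with Python 3.11.15 and pandas 2.3.3, and figures with matplotlib 3.10.9. The files give no counts, so that no counting interval is given. Libraries were assigned to groups by their titles. P-values rest on the spread between 2 libraries a group, moderated toward a trend over all genes. Members at an unadjusted limma p under 0.05 went from 4 lower and 1 higher to 0 in each direction without the trend.

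Genes were named by a rule: the 5 highest and 3 lowest of each subunit, the 6 higher and 6 lower with the smallest p, members placed elsewhere than their symbol says, functional landmarks, those with the largest exonic overlap, those with differing top transcripts, and leading genes of each list. The genes called without DMSO replicate 2, the neighbours of MRPS18B, MRPS14 in its overlap with CACYBP, and TSFM were named after their values were seen. The members and lists were chosen with earlier results of these data known. Alternatives were other pseudocounts (1 and 0.01), filters, TPM, libraries shifted to a common median, the length and GC correction, no trend, the replicate number as a block, the subunit by place in the ribosome, and each library left out.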

Additional observations from a re-analysis of the deposited data

How the results depend on the processing

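The fold changes depend on scaling and on DMSO replicate 1. With TPM, which moved the median of all genes from 0.036 to 0.10, the medians were 0.013 (all members), −0.015 (large subunit) and 0.047 (small subunit), with 38 of 78 members below 0, and the summed small subunit was 0.012 higher (log2), so that the lower direction did not hold for all members together or for the small subunit. With libraries shifted to a common median, they were −0.12, −0.15 and −0.090, with 69 of 78 below 0. Both scalings shift all genes of a library alike and leave the distance between members and other genes nearly as it was. Leaving out 1 library in turn gave medians of −0.014 to −0.12 for all members, −0.029 to −0.15 for the large and −0.0023 to −0.071 for the small subunit, and −0.019 to −0.075 for the difference of the subunits, which was −0.041 with the length and GC correction with or without the replicate block. Counting subunits by place in the ribosome took the log2 difference of the ratio from −0.030 to −0.010. The number of genes called was 0 as reported, 6 with the length and GC correction (0 with the replicate block added), and 5 to 1934 with 1 library left out (5 without DMSO replicate 1, 1934 without DMSO replicate 2, 98 and 102 without etoposide replicates 1 and 2). The number of members called was 0 to 11, 11 without DMSO replicate 2. Other pseudocounts, filters and a fit without trend called 0 genes and kept the medians to within 0.01. With the replicate number as a block, 0 genes were called, the smallest adjusted p of a member was 0.244 and the medians were those reported. Deviations of libraries with the same number correlated at 0.0133 across genes, so the numbers were not read as pairs. No transcript was called under any of its 7 alternatives. No test of the difference between the subunits was run.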
